A study of Mus musculus with 6 samples.

Results

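The 10 genes described here are 7 transcription factors of the mesenchymal transition (Snai1, Snai2, Twist1, Twist2, Zeb1, Zeb2 and Prrx1) and 3 cadherins (Cdh1, Cdh2 and Cdh11). They are set by name with no threshold on a measured value, although earlier results of these data were known when they were chosen, and are 10 of the 54446 genes listed in the deposited matrices. Their mRNA was measured by 5′ single-cell RNA-seq in droplets, in 6 libraries of GL261, an established mouse glioma line with the tissue label brain. The 2 GL261 libraries came from cells grown in a differentiation medium with fetal calf serum (FCS), and the 4 GL261-GSCs libraries came from glioblastoma stem cell (GSC) cultures derived from that line and grown in defined GSC medium. No genotype difference or added treatment is labelled, so the culture medium and the derivation of the GSCs cannot be told apart. Both groups were dissociated with Accutase and exposed to a detergent lysis buffer, and it is not stated whether whole cells or nuclei entered the droplets. The labels do not say whether replicates were separate cultures, so the p-values measure only the spread between these libraries, which may be technical.

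In epithelia, Snail, Zeb and Twist proteins lower transcription of E-cadherin (Cdh1) and other junction genes, in part by binding short DNA motifs called E-boxes, while N-cadherin (Cdh2) and mesenchymal products rise. Cells of neural origin normally carry N-cadherin and little E-cadherin, so in glioma these factors are studied as markers of a mesenchymal cell state rather than of a loss of epithelial identity. Classical cadherins hold neighbouring cells together and are tied to the actin cytoskeleton by catenins.

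Promoter sequences of genes that differed between the cultures are shown because Snail, Zeb and Twist proteins bind E-boxes. RefSeq (GRCm38.p6) promoter entries were held for 5 of the 10 genes. The bases before the annotated start, 5′ to 3′ on the coding strand, are printed for Snai1 (chr2:167537945-167538194, plus strand), Twist1 (chr12:33957421-33957670, plus strand), Prrx1 (chr1:163313711-163313900, minus strand) and the epithelial adhesion gene Epcam (chr17:87635729-87635978, plus strand). Capitals mark every match to CANNTG, the general E-box.
Snai1: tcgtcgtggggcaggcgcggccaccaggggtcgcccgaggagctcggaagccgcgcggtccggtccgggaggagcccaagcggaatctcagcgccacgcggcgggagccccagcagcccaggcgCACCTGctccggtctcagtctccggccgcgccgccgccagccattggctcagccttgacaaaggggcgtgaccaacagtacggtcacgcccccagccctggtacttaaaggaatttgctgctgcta
Twist1: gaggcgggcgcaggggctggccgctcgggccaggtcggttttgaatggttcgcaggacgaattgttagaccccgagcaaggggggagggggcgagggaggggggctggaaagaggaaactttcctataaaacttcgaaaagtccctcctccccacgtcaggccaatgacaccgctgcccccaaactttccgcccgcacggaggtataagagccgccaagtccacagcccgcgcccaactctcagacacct
Prrx1: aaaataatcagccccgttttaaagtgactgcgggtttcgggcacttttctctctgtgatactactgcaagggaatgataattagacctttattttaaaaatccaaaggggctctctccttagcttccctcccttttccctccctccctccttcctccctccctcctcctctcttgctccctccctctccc
Epcam: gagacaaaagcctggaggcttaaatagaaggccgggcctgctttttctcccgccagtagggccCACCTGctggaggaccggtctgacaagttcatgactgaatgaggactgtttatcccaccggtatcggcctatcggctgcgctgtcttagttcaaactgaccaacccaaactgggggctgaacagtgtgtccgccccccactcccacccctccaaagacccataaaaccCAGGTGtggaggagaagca
The Snai1 window held 1 CACCTG, 126 bases before its end. The Epcam window held CACCTG and CAGGTG, 187 and 19 bases before its end. The 250 bases of Twist1 and the 190 bases of Prrx1 held no E-box of this form. CAGGTG and CACCTG, the E-boxes preferred by Snail and Zeb proteins, are each other's reverse complement and both also match CANNTG, so the search covers both strands. Among 32851 promoter windows of 250 bases, 17.2% held CAGGTG or CACCTG and 66.2% held CANNTG. A match describes the letters of the window and not a bound site.

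Called cells numbered 4264 to 7275 per library, with 33320530 to 79472306 UMIs (unique molecules counted) in them and a median of 6670 to 15478 UMIs per cell. GL261-GSCs replicate 4 was the shallowest library and had the highest share of Malat1, at 0.813% of UMIs against 0.288% in the lowest library. Any 2 libraries shared 32 to 59 cell barcodes, where random draws from the barcode list give 26.1 to 57.9. Pair by pair, most counts lay above the random number, at most by 41 against 29.4 (GL261 replicate 1 and GL261-GSCs replicate 4). A few lay below it, such as 32 against 35.9 for GL261-GSCs replicates 2 and 4. Glioma and neural progenitor markers summed to 15305 to 16549 CPM (UMIs scaled to a common library size) in GL261 and 5497 to 6245 in GL261-GSCs, with 3 of 6 lower and 3 higher in GL261-GSCs. This sum was mostly Vim (14634 and 4632 CPM in group means), which is also among the mesenchymal products below. Nes (1224 and 427 CPM) and Gfap (1.29 and 0.0175 CPM) were lower too. Sox2 (67.1 and 123 CPM), Olig2 (0.467 and 557 CPM) and Fabp7 (0.0702 and 67.5 CPM) were higher. Markers of myeloid cells summed to 25.6 to 25.8 CPM in GL261 and 9.38 to 23.9 in GL261-GSCs, with 2 of 6 lower and 0 higher. Of these, Csf1r fell from 12.8 to 0.227 CPM (edgeR adjusted p = 3.19e-05) and Lyz2 from 5.34 to 0.619 CPM (edgeR adjusted p = 0.0192), while Cd68, which did not pass the test, had 7.45 and 16.1 CPM and made up most of the GL261-GSCs sum. The pan-leukocyte gene Ptprc was at most 0.0303 CPM in any library, and endothelial markers summed to at most 1.64 CPM. Neuron markers summed to 0.215 to 0.281 CPM in GL261 and 1.24 to 78.4 in GL261-GSCs, with the defining gene Rbfox3 at 0 throughout. The neuron sum in GL261-GSCs was almost wholly Syt1 (1.15 to 78.2 CPM), while Snap25 was at most 0.0690 CPM in any library. Within GL261-GSCs, replicates 1 and 2 lay apart from replicates 3 and 4 in several genes, such as Tcf4 (159 and 182 against 326 and 348 CPM) and Foxc1 (2.27 and 2.10 against 1.04 and 1.21 CPM). The labels name no batch, so whether these 4 libraries are independent is not known, and results for the 10 genes are also given with each of these pairs summed into 1 library where that changes a call.

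Of the 10 genes, Cdh2, Snai1, Snai2 and Prrx1 were lower in GL261-GSCs and Twist1 was higher. Zeb1, Zeb2 and Cdh1 did not pass the test, and Twist2 and Cdh11 were too low to be tested. In the edgeR quasi-likelihood test with Benjamini-Hochberg adjustment over 18439 genes, 5 of the 8 tested genes passed an adjusted p of 0.05, 1 higher and 4 lower, where 29.9% of all genes passed, 15.8% higher and 14.1% lower. With the GL261-GSCs replicates summed in pairs 2 were higher and 2 lower, with library size scaling and in DESeq2 2 were higher and 4 lower, and without GL261 replicate 1, or without replicate 2, 0 were higher and 2 lower. Over all genes, 2920 were higher and 2594 lower, and with library size scaling 3491 and 2034. The median log2 fold change (GL261-GSCs over GL261) of the 8 was -1.25, against 0.04 for all genes. That median has no stable sign: it was 0.06 when GL261-GSCs replicates 1 and 2, and 3 and 4, were each summed into 1 library, which brought Cdh11 into the test. It was also 0.11 with barcodes of at least 1000 UMIs, 0.04 with all barcodes and 0.04 without GL261 replicate 1, each with 9 genes tested. In every other setting the median was below 0, from -1.65 without GL261-GSCs replicate 2 to -0.48 without GL261 replicate 2. Levels are given as CPM scaled by edgeR's TMM factors. The CPM of the 2 groups did not overlap for 6 of the 8 tested genes, where 56.7% of all tested genes did not overlap. In these sums over cells, fewer cells with a transcript and less transcript per cell cannot be told apart.

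**Figure D1:**
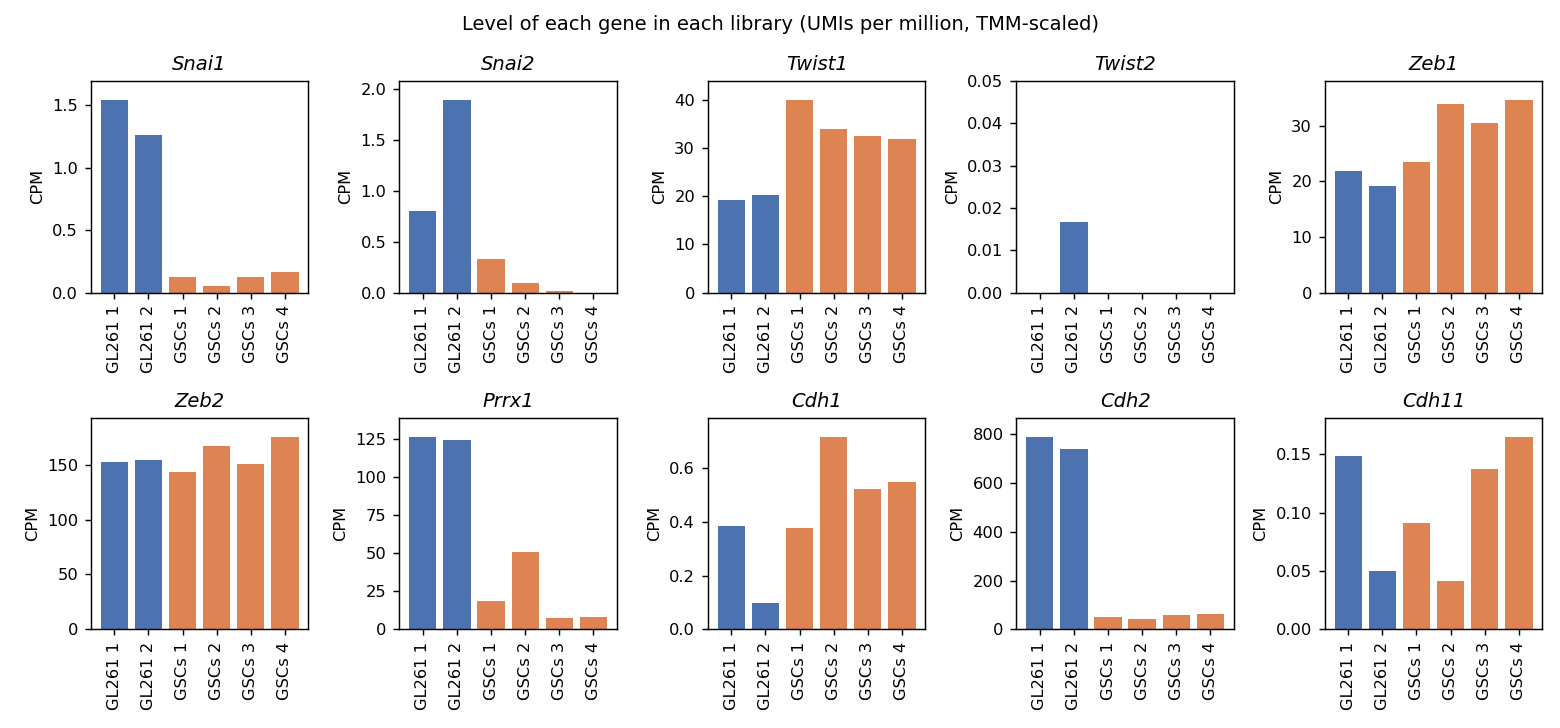
Level of each of the 10 genes in each library, in CPM (vertical axis from 0, a separate scale per gene), with 1 bar per library, GL261 in blue and GL261-GSCs (marked GSCs) in orange. Cdh2 lay at 740.4 and 789 CPM in GL261 and at 43.3 to 63.6 in GL261-GSCs, while Zeb2 overlapped between the groups.

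Snai1, which encodes the zinc-finger repressor Snail (chromosome 2, 167538195 to 167542814, GRCm38), was a rare transcript that was rarer still in the stem cell cultures. It had 1.54 and 1.26 CPM in GL261 replicates 1 and 2, and 0.121, 0.0552, 0.125 and 0.165 CPM in GL261-GSCs replicates 1 to 4. Both GL261 libraries lay above all 4 GL261-GSCs libraries. Behind these levels stood 180 UMIs over the GL261 libraries and 28 over the others. The fitted level was 12.2-fold lower in GL261-GSCs (log2 fold change -3.61, SE 0.39, edgeR adjusted p = 0.00107), and it passed the test with any 1 library left out.

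Snai2, which encodes the related repressor Slug (chromosome 16, 14705852 to 14709385), was unevenly detected in both cultures. It had 0.800 and 1.89 CPM in GL261 and 0.334, 0.0966, 0.0125 and 0 CPM in GL261-GSCs replicates 1 to 4. The 22 UMIs of GL261-GSCs replicate 1 made up most of the 30 UMIs of that group, and the groups still did not overlap. The fitted log2 fold change was -3.51 (SE 1.03, edgeR adjusted p = 0.0425). This call rested on single libraries: the edgeR adjusted p was 0.108 without GL261 replicate 1, 0.264 without GL261 replicate 2, 0.0899, 0.0756 and 0.0547 without GL261-GSCs replicates 2, 3 and 4, and 0.00768 without GL261-GSCs replicate 1. The log2 fold change moved as well, from -2.78 without GL261 replicate 2 to -4.94 without GL261-GSCs replicate 1, and was -4.02 without GL261 replicate 1. Summing replicates 1 and 2, and 3 and 4, of GL261-GSCs gave an adjusted p of 0.0806.

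Twist1, a basic helix-loop-helix factor first known from mesoderm development (chromosome 12, 33957671 to 33959829), was the only gene of the 8 tested that passed the main test as higher. It had 19.3 and 20.2 CPM in GL261 and 40.0, 33.9, 32.5 and 31.9 CPM in GL261-GSCs replicates 1 to 4. Every GL261-GSCs library lay above both GL261 libraries. The level was 1.75-fold higher (log2 fold change 0.81, SE 0.15, edgeR adjusted p = 0.00774). With 1 GL261 library left out the size was similar, at 0.76 and 0.84 on the log2 scale, but the adjusted p was 0.0940 without replicate 1 and 0.0826 without replicate 2. Its paralog Twist2 had 1 UMI in GL261 replicate 2 and none in the other 5 libraries.

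Zeb1, a zinc-finger and homeodomain repressor on chromosome 18, lay near the threshold. It had 21.8 and 19.2 CPM in GL261 and 23.5, 34.0, 30.5 and 34.6 CPM in GL261-GSCs replicates 1 to 4. The lowest GL261-GSCs library, replicate 1, was close to the higher GL261 library, and the groups did not overlap. The log2 fold change was 0.58 (SE 0.19, edgeR adjusted p = 0.0610). It passed the test in 1 of 6 left-out libraries: the edgeR adjusted p was 0.0121 without GL261-GSCs replicate 1, 0.195 and 0.335 without GL261 replicates 1 and 2, and 0.0994, 0.114 and 0.0828 without GL261-GSCs replicates 2, 3 and 4. It also passed with library size scaling (0.0420), with the GL261-GSCs replicates summed in pairs (0.0497) and in DESeq2 (0.0283). It passed in none of the other 7 settings that left no library out, where the adjusted p was 0.0567 to 0.131. The 0.131 came from the replicate block, where only replicates 1 and 2 of each group enter the comparison.

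Zeb2, its paralog (chromosome 2, 44983632 to 45117395), had 153 and 154 CPM in GL261 and 143, 167, 151 and 175 CPM in GL261-GSCs replicates 1 to 4. The GL261 libraries lay inside the range of the GL261-GSCs libraries. The log2 fold change was 0.05 (SE 0.13, edgeR adjusted p = 0.786). An antisense gene, Zeb2os, overlaps Zeb2, with 290 UMIs over the GL261 libraries and 959 over the GL261-GSCs libraries, against 19615 and 40020 UMIs of Zeb2.

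Prrx1, a paired-related homeobox factor of embryonic mesenchyme (chromosome 1, 163245119 to 163313710), was lower in every GL261-GSCs library and varied most within that group among the members with more than 1000 UMIs in each. It had 126 and 124 CPM in GL261 and 18.3, 50.8, 7.53 and 7.99 CPM in GL261-GSCs replicates 1 to 4. The 4 GL261-GSCs libraries spanned 6.74-fold, with replicate 2 the highest and replicates 3 and 4 the lowest, and none reached the GL261 level. The fitted level was 5.91-fold lower (log2 fold change -2.56, SE 0.73, edgeR adjusted p = 0.0391). Without GL261-GSCs replicate 2 the log2 fold change was -3.45 and the edgeR adjusted p 0.00405. Without GL261 replicates 1 and 2 the log2 fold changes were -2.56 and -2.58, with adjusted p of 0.147 and 0.152. The adjusted p was 0.0641, 0.0690 and 0.0595 without GL261-GSCs replicates 1, 3 and 4, with log2 fold changes of -2.48, -2.28 and -2.27, and 0.0577 with the GL261-GSCs replicates summed in pairs.

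Cdh2, N-cadherin, on chromosome 18, showed the clearest difference of the 10 genes. It had 789 and 740.4 CPM in GL261 and 48.7, 43.3, 57.1 and 63.6 CPM in GL261-GSCs replicates 1 to 4. The lowest GL261 library was far above the highest GL261-GSCs library, and within each group the values lay close together (765 ± 34.6 CPM, SD, n = 2, and 53.2 ± 8.95, SD, n = 4). The level was 14.4-fold lower in GL261-GSCs (log2 fold change -3.85, SE 0.18, edgeR adjusted p = 5.54e-05), and it passed the test with any 1 library left out.

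Cdh1, E-cadherin (chromosome 8, 106603351 to 106670246), was nearly undetected in both cultures. It had 0.385 and 0.0994 CPM in GL261 and 0.379, 0.718, 0.525 and 0.549 CPM in GL261-GSCs replicates 1 to 4, from 32 and 139 UMIs. GL261 replicate 1 overlapped the GL261-GSCs libraries. The log2 fold change was 1.15 (SE 0.56, edgeR adjusted p = 0.166), and the GL261 libraries decided its size: it was 2.42 without GL261 replicate 1 (adjusted p = 0.0694) and 0.49 without GL261 replicate 2 (adjusted p = 0.605). Cdh11, a cadherin of osteoblasts and mesenchyme (chromosome 8, 102632095 to 102785642), was counted 13 times in the GL261 libraries and 26 times in the others, and its CPM overlapped between the groups.

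The share of cells in which each transcript was found was compared after every cell was thinned to 2000 UMIs, so that all cells had the same depth. Such a share is a detection rate at that depth and not the share of cells that carry the transcript. Without thinning, Cdh2 was found in 96.2% of GL261 cells and 40.5% of GL261-GSCs cells in group means, and Prrx1 in 69.5% and 17.1%. The shares below are at 2000 UMIs unless another setting is named. Cdh2 was found in 71.4% and 67.4% of GL261 cells and in 10.6%, 10.0%, 13.5% and 15.8% of the cells of GL261-GSCs replicates 1 to 4. The share that free RNA alone would produce, taken from the small barcodes (100 or more UMIs but fewer than 1000), was 3.60% and 2.57% in GL261 and 0.226% to 1.02% in GL261-GSCs, and the measured shares lay above it in all 6 libraries. Prrx1 was found in 20.2% and 19.95% of GL261 cells and in 3.35%, 10.1%, 1.48% and 1.68% of GL261-GSCs cells, again with replicate 2 the highest of its group.

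Twist1 was found in 3.74% and 3.38% of GL261 cells and in 7.53%, 6.22%, 5.95% and 6.94% of GL261-GSCs cells. Zeb1 was found in 4.01% and 3.80% of GL261 cells and in 5.18%, 7.33%, 7.57% and 8.42% of GL261-GSCs cells. Zeb2 was found in 23.9% and 24.2% of GL261 cells and in 26.1%, 29.9%, 27.6% and 34.0% of GL261-GSCs cells. For all 3 factors every GL261-GSCs share lay above both GL261 shares. This depended on the depth setting: without thinning, GL261-GSCs replicate 4, the shallowest library, lay within the GL261 range for Twist1 (20.9% against 20.2% and 21.7%) and Zeb1 (22.9% against 19.6% and 23.9%). For Zeb2 without thinning, the mean difference was -1.42 percentage points in place of 5.39, and the groups overlapped. It was 1.46 percentage points in cells of at least 5000 UMIs, and with every barcode of at least 1000 UMIs the groups overlapped at a mean difference of 4.52. Because the Zeb2 CPM did not pass the test, no change is read from its share.

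Snai1 was found in 0.208% and 0.220% of GL261 cells and in at most 0.0443% of cells in a GL261-GSCs library, with 0 of 5870 cells in replicate 2. Snai2 was found in 0.166% and 0.280% of GL261 cells and in 2 of 4264 cells (0.0469%) of GL261-GSCs replicate 1. It was found in no cell of GL261-GSCs replicates 2 to 4 after thinning. At that depth, this allows detection rates of up to 0.0511%, 0.0412% and 0.0665%. These limits do not bound the share of cells that carry the transcript. Without thinning, Snai2 was found in 4 of 5870 cells of replicate 2 (0.0681%) and 1 of 7275 of replicate 3 (0.0137%). It was again found in no cell of replicate 4. Cdh1 was found in 2 and 2 cells of the GL261 libraries (0.0416% and 0.0400%) and in 3, 8, 9 and 7 cells of GL261-GSCs replicates 1 to 4 (0.0704% to 0.155%). These few Cdh1 cells gave groups that overlapped without thinning (0.520% and 0.120% against 0.443% to 0.886%) and with every barcode of at least 1000 UMIs. For 8 of the 10 genes the shares of the 2 groups did not overlap, where 48.8% of the 18439 tested genes did not overlap. These are unlike sets: the 8 were all among the 18439, and Twist2 and Cdh11, which overlapped, were not. The exact 2-sided permutation p was 0.13 for each of the 8, and 0.167 after Benjamini-Hochberg adjustment over the 10 genes. The 0.13 is the smallest value that this form of the test can give with 2 against 4 libraries. Without thinning, 4 of the 10 did not overlap.

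**Figure D2:**
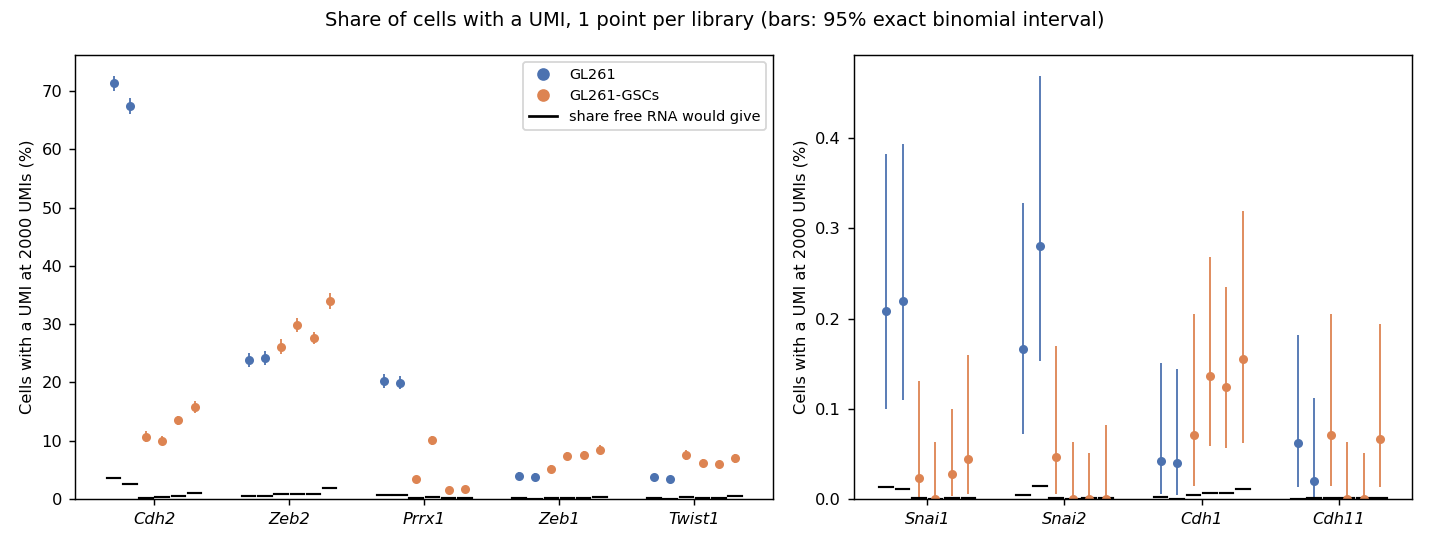
Percent of cells in which each gene was found after thinning to 2000 UMIs (vertical axis, separate scales left and right), with 1 point per library, bars for the 95% exact binomial interval and black ticks for the share that free RNA would give. Cdh2 lay at 67.4% and 71.4% in GL261 and at 10.0% to 15.8% in GL261-GSCs.

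The number of Cdh2 UMIs per cell also differed. A lower mean number of UMIs lowers both this number and the share, so these are not shown to be separate differences. At 2000 UMIs, 286 of 4808 cells (5.95%) and 237 of 5002 cells (4.74%) of the GL261 libraries held 5 or more Cdh2 UMIs. No cell of any GL261-GSCs library did, which allows shares of up to 0.0412% to 0.0704% at this depth. The median cell held 1 Cdh2 UMI in both GL261 libraries and 0 in all 4 GL261-GSCs libraries, and the highest cell held 16 and 14 UMIs in GL261 and 4 in each GL261-GSCs library. Prrx1 was sparser, and after thinning to 2000 UMIs at most 5 Prrx1 UMIs were seen in any cell.

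**Figure D3:**
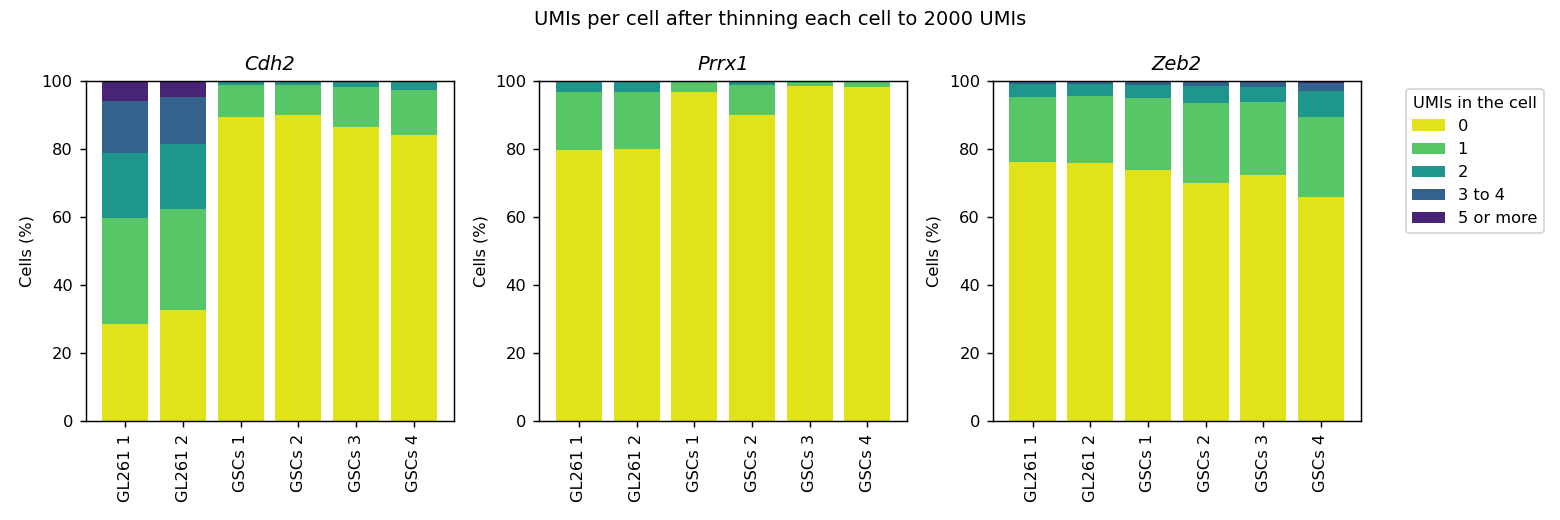
Percent of cells (vertical axis) with 0, 1, 2, 3 to 4 and 5 or more UMIs of Cdh2, Prrx1 and Zeb2 in each library (horizontal axis, GSCs for GL261-GSCs) after thinning to 2000 UMIs. Cells with 5 or more Cdh2 UMIs made up 5.95% and 4.74% of the GL261 libraries and 0 of the GL261-GSCs libraries.

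Within libraries, levels were compared between cells with at least 2 UMIs of 8 proliferation genes and cells with none, as a description with no test. Cdh2 was higher in the proliferating cells of 6 of 6 libraries, by 1.05 to 1.33-fold, and Twist1 in 6 of 6, by 1.07 to 1.37-fold. Zeb1 and Zeb2 were lower in 5 of 6 libraries each, with ratios of 0.813 to 1.02 and 0.725 to 1.02. Prrx1 was higher in 2 and lower in 4. Zeb1 and Zeb2 were found together in 658 cells, 1.09 to 1.24 times the number that the product of their shares gives in each library. The excess was not limited to that pair: it was 1.08 to 1.28 for Zeb2 and Cdh2, in 6 of 6 libraries, and 0.948 to 1.40 for Twist1 and Prrx1, above 1 in 5 of 6. Snai1 and Snai2 were never found in the same cell after thinning, where both were rare.

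The genes whose profile over the 6 libraries was most like that of each more abundant member were found among 9492 genes by the root mean square difference of centred log2 (CPM + 1) values. Among the nearest to Twist1 were Nup50 (0.0404) and Rev1 (0.0569). Among the nearest to Zeb1 were Gas5 (0.0467) and Fcho2 (0.0706), and nearest to Zeb2 were Scai (0.0241), Dync1li2 (0.0350) and Cc2d1b (0.0443). For Prrx1, Gstm2 (0.312), Col5a1 (0.323) and Adgrg6 (0.348) were the nearest. The measure grows with the spread of a gene's own profile, so its values cannot be compared between members. Nearest to Cdh2 were Anxa2 (0.171), Cnn2 (0.174) and Olfml2a (0.203).

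Among 16 other transcription factors of mesenchymal transitions, 11 were tested, 3 rose and 5 fell. The counts of this and the next lists stand beside 15.8% higher and 14.1% lower over all genes. The risers Tcf12 (127 to 482 CPM in group means, log2 fold change 1.93), Tcf4 (81.1 to 254 CPM, 1.64) and Klf8 (0.520 to 1.67 CPM, 1.68) include the E-proteins Tcf12 and Tcf4, which pair with Twist1. The third E-protein of the list, Tcf3, had 146 and 134 CPM in group means and did not pass the test (log2 fold change -0.12, SE 0.15, edgeR adjusted p = 0.585). The fallers with the smallest p were Prrx2, the paralog of Prrx1 (4.51 ± 0.219 CPM, SD, n = 2, to 0.0145 ± 0.0168, SD, n = 4; log2 fold change -8.00), the T-box repressor Tbx2 (45.7 to 2.14 CPM, -4.44) and the forkhead factor Foxc1 (8.49 to 1.65 CPM, -2.35). The Prrx2 level in GL261-GSCs rested on very few UMIs, so the size of its fold change is imprecise. The median of the 11 was -0.12 and became 0.03 with library size scaling, which moved the median of all genes from 0.04 to 0.18. Without GL261 replicate 1, Klf8 and Tcf4 had edgeR adjusted p of 0.0840 and 0.0997, and without GL261 replicate 2 of 0.0509 and 0.152.

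Of 18 corepressors and modifiers used by Snail and Zeb proteins, all were tested, 2 rose and 5 fell, so that 38.9% were called, against 29.9% of all genes, and the median was 0.01. The split depended on the setting: 5 rose and 5 fell with library size scaling, and 4 rose and 5 fell in DESeq2 and with cells of at least 5000 UMIs. Pak1, a kinase that phosphorylates Snail, rose from 22.9 ± 3.47 (SD, n = 2) to 189 ± 39.3 CPM (SD, n = 4; log2 fold change 3.05, SE 0.25, edgeR adjusted p = 0.000382). Gsk3b, a kinase that marks Snail for degradation, rose from 165 to 255 CPM (0.62), with edgeR adjusted p of 0.194 and 0.176 without GL261 replicates 1 and 2. The Hippo kinase Lats2 fell (54.4 to 4.78 CPM, -3.51), as did the LIM protein Wtip (118 to 49.8 CPM, -1.24) and the casein kinase Csnk1a1 (372 to 159 CPM, -1.23).

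Of 26 epithelial junction and regulator genes, 12 were tested, 1 rose and 2 fell, and 25% were called. With library size scaling 2 rose and 2 fell, in DESeq2 3 rose and 3 fell, and with all barcodes 1 rose and 4 fell. The median of 0.21 had no stable sign: it was -0.08 under limma-voom, -0.19 with no filter on low counts, -0.38 and -0.18 without GL261-GSCs replicates 1 and 3, and 0.85 without GL261 replicate 1. Epcam had 1.29 and 0.745 CPM in GL261 and 28.8, 12.6, 86.9 and 86.8 CPM in GL261-GSCs replicates 1 to 4. All GL261-GSCs libraries were above both GL261 libraries, and replicates 3 and 4 were the highest (log2 fold change 5.72, SE 1.03, edgeR adjusted p = 0.00764, and 0.0627 and 0.0807 without GL261 replicates 1 and 2). The keratin Krt8 had 0.137 to 1.44 CPM over all 6 libraries and did not pass the test (log2 fold change 0.02, edgeR adjusted p = 0.988), and Krt18 was not tested. The 5 epithelial cell markers, Epcam and keratins among them, summed to 1.16 to 2.62 CPM in GL261 and 13.1 to 88.4 in GL261-GSCs, with 1 called higher and 0 lower. The GL261-GSCs sum was almost wholly Epcam itself. Of the splicing regulator Esrp1, which was not tested, 173 of 175 UMIs were in GL261-GSCs replicate 1. Their part in the result was not tested. The plakophilin Pkp2 (48.5 to 17.9 CPM, -1.43) and the splicing regulator Esrp2 (1.88 to 0.250 CPM, -2.89) fell, the latter with edgeR adjusted p of 0.0594 and 0.0667 without GL261 replicates 1 and 2.

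Other cadherins moved in both directions. Of 19 genes, 8 were tested, 5 rose and 2 fell, and the median was 3.91, or 3.07 with Cdh5 and Cdh20, which had 0 to 3 UMIs in a group, at their ratio or bound. With no filter on low counts the median was 1.58. Cdh19 rose from 11.9 ± 1.82 (SD, n = 2) to 126 ± 9.49 CPM (SD, n = 4; log2 fold change 3.41, SE 0.17, edgeR adjusted p = 7.68e-05), and its GL261 libraries (10.6 and 13.2 CPM) lay far below GL261-GSCs replicates 1 to 4 (112, 133, 130.5 and 129 CPM). Cdh18 rose from 0.0989 to 22.4 CPM (7.76) and Cdh10 from 0.356 to 7.69 CPM (4.41), the latter with edgeR adjusted p = 0.0627 without GL261 replicate 2. Cdh6 fell from 204 to 4.24 CPM (log2 fold change -5.60). Cdh5, the endothelial VE-cadherin, was counted 49 times in the GL261 libraries and 1 time in the others, a ratio of 97.6 with a counting interval of 16.7 to 3934. Cdh20 was at 0 in both GL261 libraries, and its 40 UMIs in GL261-GSCs make it at least 6.69-fold higher there, taking 3 UMIs as the floor of the GL261 group.

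**Figure D4:**
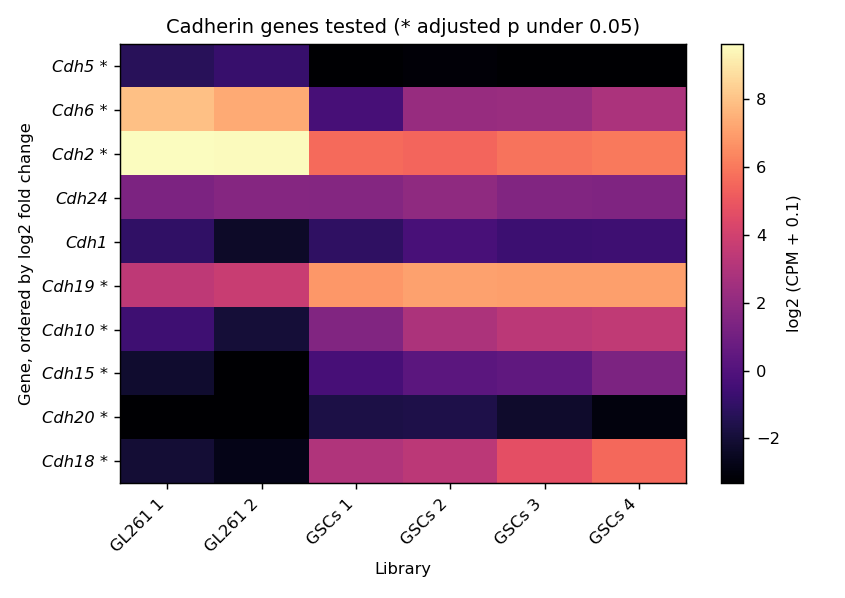
Level of each tested cadherin gene (rows, ordered by log2 fold change) in each library (columns, GSCs for GL261-GSCs) as log2 (CPM + 0.1), with an asterisk for an edgeR adjusted p under 0.05. Cdh2 and Cdh6 were high in GL261 and low in GL261-GSCs, and Cdh19 was the reverse.

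Of 20 catenins and cadherin partners, 16 were tested, 2 rose and 4 fell (37.5% called), with a median of -0.19. With library size scaling 3 rose and 3 fell. Alpha-catenin Ctnna1 fell from 353 ± 3.28 (SD, n = 2) to 106 ± 13.0 CPM (SD, n = 4; log2 fold change -1.74, SE 0.14, edgeR adjusted p = 0.000370). The protease Adam10, which cleaves N-cadherin, fell from 220 to 81.7 CPM (-1.43), and p120-catenin Ctnnd1 fell, with 68.2 and 75.8 CPM in GL261 and 37.7 to 40.2 CPM in GL261-GSCs (-0.88). Beta-catenin Ctnnb1 had 158 and 160 CPM in GL261 and 140 to 163 CPM in GL261-GSCs (log2 fold change -0.10, edgeR adjusted p = 0.558). Arvcf (2.11 to 9.33 CPM, 2.14) and Plekha7 (9.51 to 28.2 CPM, 1.57) rose, with edgeR adjusted p of 0.050 and 0.137 without GL261 replicate 1 and 0.0737 and 0.122 without GL261 replicate 2.

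Of 24 mesenchymal products, 20 were tested, 1 rose and 13 fell, with a median of -1.81. The calcium-binding protein S100a4 fell from 109 ± 10.9 (SD, n = 2) to 0.570 ± 0.178 CPM (SD, n = 4; log2 fold change -7.57, SE 0.28, edgeR adjusted p = 3.30e-05). The smooth muscle protein Tagln fell from 110 to 0.154 CPM (log2 fold change -9.38). Collagen Col3a1 rose, with 6.01 and 5.0 CPM in GL261 and 22.3, 180.0, 201 and 174 CPM in GL261-GSCs replicates 1 to 4 (4.71, edgeR adjusted p = 0.0113, and 0.0907 and 0.105 without GL261 replicates 1 and 2). The 7 fibroblast and pericyte markers did not move as a group: 2 were lower and 1 higher, and none was at 0 in all libraries. Their sum of 9.50 to 9.94 CPM in GL261 and 1.39 to 3.87 in GL261-GSCs fell through Pdgfrb (4.99 to 0.116 CPM, edgeR adjusted p = 0.00109) and Col6a3 (4.53 to 0.0910 CPM, edgeR adjusted p = 0.0167). Notch3 rose, with 0.148 and 0.0994 CPM in GL261 and 0.470 to 3.19 CPM in GL261-GSCs (edgeR adjusted p = 0.0233), and Dcn, which did not pass the test, had 0.0593 and 0.242 CPM. Rgs5 and Pdpn, which were not tested, had 0 UMIs in GL261 and 21 and 60 in GL261-GSCs, all 60 of Pdpn in replicate 1. Their part in the result was not tested.

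Of 17 TGF-beta and Wnt genes, which act upstream of these factors in many tissues, 16 were tested, 3 rose and 7 fell, with a median of -0.73. The inhibitory Smad7 fell from 124 ± 10.9 (SD, n = 2) to 2.19 ± 0.376 CPM (SD, n = 4; log2 fold change -5.82, SE 0.19, edgeR adjusted p = 2.47e-05), the ligand Tgfb1 from 29.2 to 2.78 CPM (-3.39) and Skil, a TGF-beta target and feedback inhibitor, from 57.9 to 18.1 CPM (-1.68). The ligand Tgfb3 (4.43 to 17.6 CPM, 1.99) and the receptors Tgfbr2 (18.8 to 64.4 CPM, 1.78) and Tgfbr1 (13.0 to 22.0 CPM, 0.76) rose, Tgfbr1 with edgeR adjusted p of 0.105 and 0.106 without GL261 replicates 1 and 2.

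**Figure D5:**
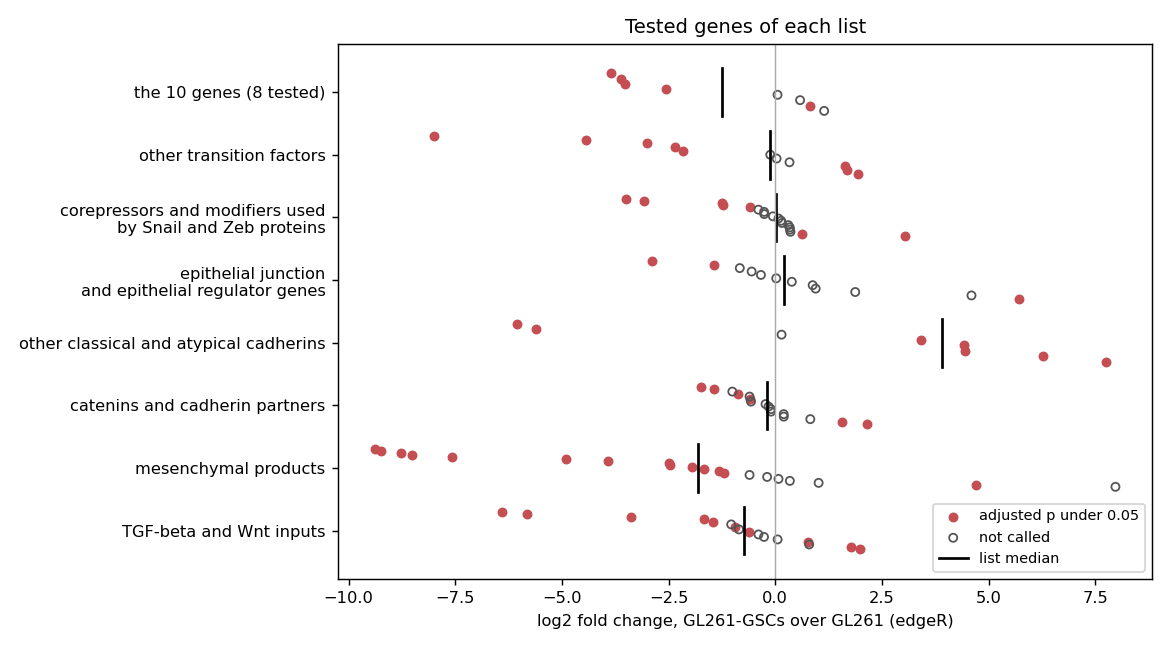
Log2 fold change (GL261-GSCs over GL261, horizontal axis) of each tested gene of the 10 members and the 7 lists (rows), with red points for an edgeR adjusted p under 0.05, open points for genes not called and a black line for the median. The median of mesenchymal products was -1.81, and that of other classical and atypical cadherins 3.91.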

How the data were processed

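The deposited matrices hold UMI counts for every gene in every barcode, not normalized and not filtered, from Cell Ranger 4 as named in the file headers. The submitters' processing notes name mm10. Cells were barcodes whose UMIs reached 10% of the 99th percentile among the library's 3000 largest, with at least 500 genes and under 10% mitochondrial UMIs. No doublet caller was run. Counts were summed over cells per library and tested in edgeR 4.0.16 (R 4.3.3; quasi-likelihood, TMM, filterByExpr, Benjamini-Hochberg over 18439 genes, 2-sided). Each SE was derived from the F statistic as the size of the log2 fold change over its root, and can look too precise at few UMIs. Positions are from GENCODE M21. Shares have exact binomial (Clopper-Pearson) intervals at 95%, which cover counting error only, and a share of 0 has the limit of 3 cells. Exact permutation tests used scipy 1.17.1.

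The 10 genes and the lists were chosen with earlier results of these data known. Named genes were all 10, the 3 with the smallest p called in each direction of each list, and the 3 most similar profiles of each more abundant member (average log2 CPM of at least 3); a few of these are not reported here. Tcf3, Krt8, Krt18, Ctnnb1, Cdh20, Syt1, Snap25, Csf1r, Lyz2, Cd68, Ptprc, Pdgfrb, Col6a3, Notch3, Dcn, Rgs5, Pdpn, Esrp1, Zeb2os and the Epcam promoter were picked after their values were seen. The glioma and neural progenitor markers were also named after their values were seen. Alternatives were DESeq2 1.42.0, limma-voom 3.58.1, other scaling, filters and cell limits, a replicate block and leaving out each library. Summing GL261-GSCs replicates in pairs was added after seeing in the data that these pairs resemble each other. On simulated data (18439 genes, 200 changed by 2 on the log2 scale), edgeR recovered 170 with 8 false calls among 178. The simulation gave every gene and both groups 1 common dispersion (0.0969). In the data 29.9% of genes were called. The SD within GL261-GSCs was 16.8% of the mean CPM for Cdh2 and 96.2% for Prrx1. The simulated rates therefore do not carry over to the calls here.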

Additional observations from a re-analysis of the deposited data

Results flagged for a closer look

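The share of cells with a Snai2 UMI at 2000 UMIs was 0.0469% in GL261-GSCs replicate 1 and 0 in the other 3 GL261-GSCs libraries. It was listed because its gap to the others spans the whole range of the group, which holds for any value above 0 when the others are all 0. The share rests on 1 random draw of UMIs per cell and on 2 of 4264 cells, with a 95% exact binomial interval of 0.00568% to 0.169%. For 0 cells, the upper ends of the same interval in GL261-GSCs replicates 2 to 4 are 0.0628%, 0.0507% and 0.0817%, all above 0.0469%. Without thinning, GL261-GSCs replicate 1 lay apart: Snai2 was found in 21 of its 4264 cells (0.492%, interval 0.305% to 0.752%), against 4 of 5870 in replicate 2 (0.0681%, interval 0.0186% to 0.174%), 1 of 7275 in replicate 3 (0.0137%, interval 0.000348% to 0.0766%) and 0 of 4512 in replicate 4. The Snai2 UMIs behind these were 22, 7, 1 and 0. Chance flags about 1 in 20 groups, and 18 groups were examined.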

How the results depend on the processing

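Leaving out a GL261 library leaves 1 in that group, whose spread is then taken from the other group. Without GL261 replicate 1 or 2, 1972 or 1817 genes passed the edgeR test in place of 5514 (range over all 6 left-out libraries 1817 to 6193). The genes called among the 10 numbered 2 to 5 when 1 library was left out, 2 when that was a GL261 library and 3 when it was GL261-GSCs replicate 3 or 4. Over the same left-out libraries, other transition factors called ranged from 4 to 8, corepressors from 4 to 8, epithelial genes from 1 to 4, other cadherins from 4 to 7 and catenins from 3 to 8. Of the 34 list genes named by the rule, 9 were lost without GL261 replicate 1 and 10 without GL261 replicate 2, and Gsk3b also without GL261-GSCs replicate 3. Epithelial genes called were 6 with DESeq2, 5 with the replicate block, 5 with cells of at least 5000 UMIs and 5 with all barcodes, in place of 3, and catenins were 10 with DESeq2 and 11 with the replicate block, in place of 6. Members with shares that did not overlap fell from 8 to 4 without thinning, where the Zeb2 difference turned to -1.42 percentage points. With GL261-GSCs replicates summed in pairs, other cadherins called were 6 in place of 7 (4 higher in place of 5), mesenchymal products 12 in place of 14 (11 lower in place of 13) and TGF-beta and Wnt genes 11 in place of 10 (4 higher in place of 3). The cause of these changes was not tested. No pairing by replicate number was seen: deviations of libraries numbered 1 correlated at -0.01 and of those numbered 2 at 0.07 over 18439 genes. The deviations of the 2 GL261 libraries mirror each other, so this check is weak. With the number as a block, 6512 genes passed and the same 5 of the 10 did. GL261-GSCs replicates 3 and 4 have no counterpart in GL261. The block comparison therefore rested on replicates 1 and 2 of each group and is not a check on all 6 libraries. Snai1, Snai2, Cdh1, Cdh11 and Twist2 rested on under 200 UMIs in each group, which limits what their levels can show.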
